A study of Mus musculus with 24 samples.

Results

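The genes of the semaphorin, ephrin, slit and netrin guidance systems were followed in mouse skin and in the dorsal root ganglia (DRG), where the cell bodies of sensory neurons lie. They were the protein-coding genes whose symbol begins with Sema, Plxn, Unc5, Efna, Efnb, Epha or Ephb, together with Slit1, Slit2, Slit3, Robo1, Robo2, Robo3, Ntn1, Ntn3, Ntn4, Ntn5 and Dcc. This gave 68 of the 45777 genes in the table: 20 semaphorins, 9 plexins, 8 ephrins, 14 Eph receptors, 3 slits, 3 robos, 4 netrins and 5 netrin receptors. The other 2, Unc50 and Unc5cl, were taken in by their names alone and are not guidance receptors. The samples were 6 skin libraries of the LL37 rosacea model, 6 of control skin, 6 DRG libraries of the model and 6 of control DRG. LL37 is the cathelicidin peptide that is elevated in rosacea, and injecting it into mouse skin gives redness and inflammation. The design gives female BALB/c mice of 6 weeks, with LL37 at 320 µM and 40 µL put into the skin 2 times a day over 2 days. It adds oral gabapentin at 100 mg/kg from day 3 and DRG collection on day 4. No sample label names gabapentin, so the sources used here do not tell which animals received it, what controls were injected with or when skin was taken. Whether each library is an animal of its own is not in the labels, and a p-value here measures only the spread between these samples, which may be technical.

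Guidance molecules were found as signals that steer growing axons, and the same molecules steer blood vessels, immune cells and epithelial cells. Semaphorins signal through plexins, the secreted class 3 members mostly with a neuropilin as co-receptor. Ephrins and Eph receptors are both bound to membranes and signal at contacts between cells, in keratinocytes among others. Slits signal through robos, and netrins through Dcc, which mostly attracts, and the Unc5 receptors, which mostly repel.

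Total counts were between 45238735 and 68396846 per library. Of the 68 genes, 60 passed the filter on low counts in skin and 66 in DRG, and all 68 passed it when both tissues were fitted together. Dcc, Epha5, Epha6, Epha8, Robo3, Slit1, Unc5cl and Unc5d were left out in skin, and Epha1 and Unc5cl in DRG. The tissue labels fitted the markers: 10 sensory neuron markers summed to between 7020 and 9520 CPM (counts scaled to library size) in DRG libraries and to between 4.3 and 44.1 CPM in skin libraries. Some libraries stood apart. The sum of 8 hair follicle markers was 1240 CPM in skin control 2, against 32206 to 50616 CPM in the other control skin libraries. The sum of 7 T cell markers was 198 CPM in skin model 2, against 16.2 to 32.5 CPM in the other model skin libraries. The sum of 8 markers of central glia, a list chosen after the data were seen, was 834 CPM in DRG control 5, against 27.1 to 94.9 CPM in the other control DRG libraries. That library held the highest level of the 6 control DRG libraries for 36 of the 66 genes tested in DRG, and each other library for 4 to 8. This was not counted over all genes, so it describes the library and is not a result about guidance genes. In bulk tissue, fewer cells of a type and less RNA per cell cannot be told apart.

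Where each guidance gene was expressed without LL37 was asked first, by setting control skin against control DRG. Most guidance genes differed between the tissues, about as many in either direction. Of the 68 genes 31 were higher in skin and 32 higher in DRG (edgeR's quasi-likelihood test, Benjamini-Hochberg adjusted p under 0.05), and 5 did not pass. The background was high, as 83.3% of the 21998 genes tested passed, 42% higher in skin and 41.3% higher in DRG. Of the 8 ephrins 7 were higher in skin, all but Efnb3, and of the 14 Eph receptors 8 were higher in skin and 6 in DRG. Of the 20 semaphorins 7 were higher in skin and 10 in DRG, and of the 5 netrin receptors 1 was higher in skin and 4 in DRG.

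**Figure D1:**
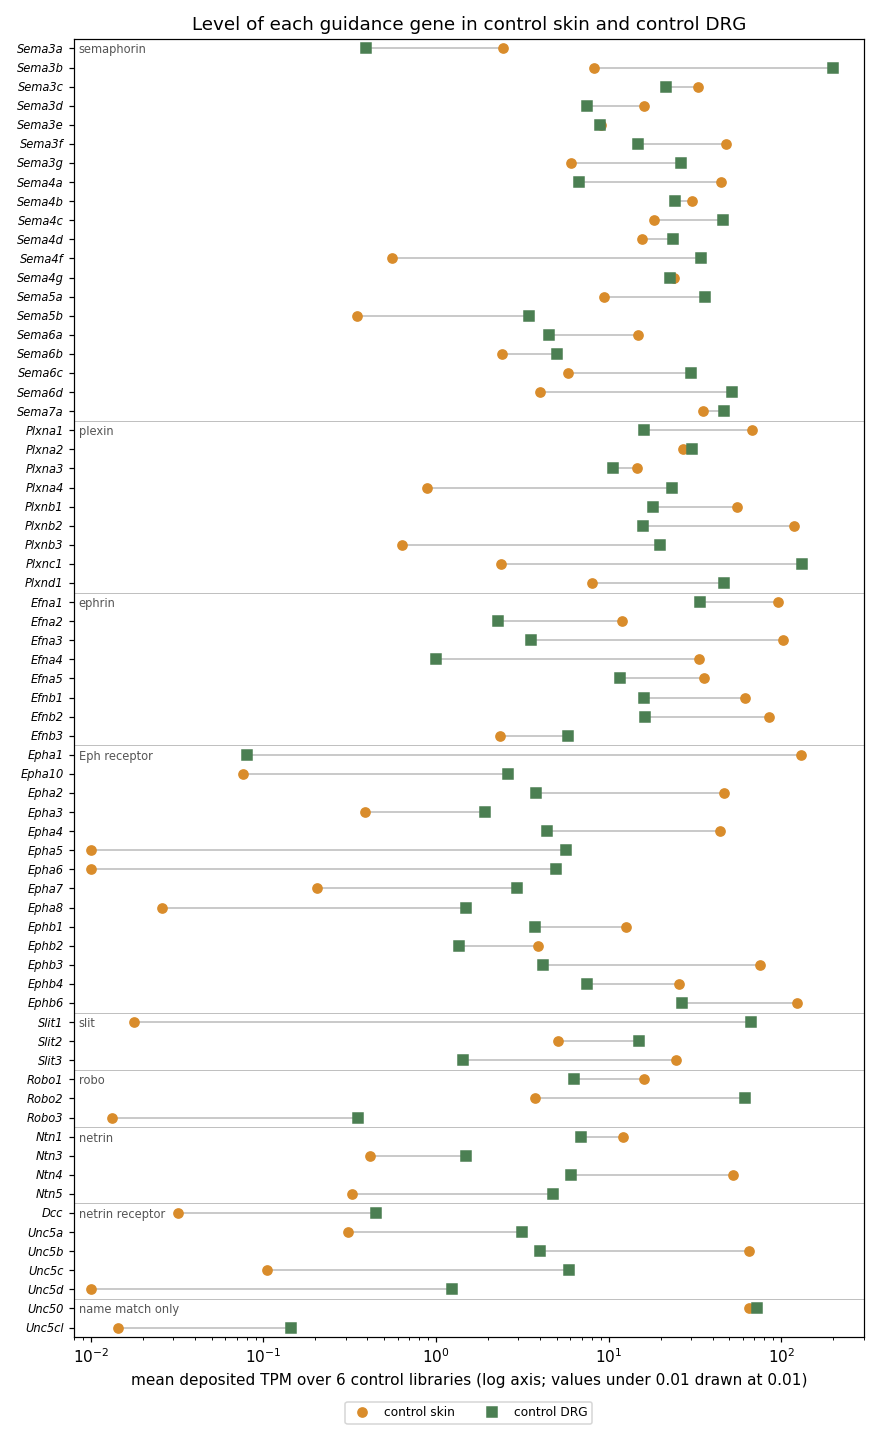
Mean deposited TPM of each of the 68 guidance genes in control skin (circles) and control DRG (squares), 6 libraries each, on a log axis, grouped by family. Epha1 lay at 131 TPM in skin and 0.0798 TPM in DRG, and Slit1 at 0.0178 TPM in skin and 67.1 TPM in DRG.

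Levels of different genes can be set side by side only per transcript length, so the TPM values deposited by the authors are given here. In control skin the highest was Epha1, the Eph receptor typical of epithelia, at 131 ± 15.3 TPM (SD, n = 6). Ephb6, an Eph receptor without kinase activity, followed at 124 ± 16.4 TPM, Plxnb2, a receptor of class 4 semaphorins, at 119 ± 15.3 TPM and the ligand Efna3 at 103 ± 11.3 TPM. These 4 overlapped in part: the Epha1 range was 112 to 153 TPM and the Ephb6 range 101 to 142 TPM. In control DRG the highest guidance gene was Sema3b, a secreted class 3 semaphorin, at 199 ± 33.7 TPM. Plxnc1, the receptor of Sema7a, followed at 132 ± 18.6 TPM, Slit1 at 67.1 ± 9.33 TPM and its receptor Robo2 at 61.4 ± 10.9 TPM. The Sema3b range of 141 to 233 TPM reached into the Plxnc1 range of 112 to 161 TPM, and Slit1 at 58.1 to 83.8 TPM overlapped with Robo2 at 45.2 to 77.7 TPM. Unc50, which shares only its name, was at 65.4 ± 7.09 TPM in skin and 72.9 ± 2.62 TPM in DRG.

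The genes with the widest gaps were nearly silent in one tissue. Epha1 was at 174, 207 and 239 CPM (lowest, median and highest library) in control skin, against 0, 0.118 and 0.205 CPM in control DRG. Slit1 ran the other way, at 0 to 0.255 CPM in control skin and 164 to 225 CPM in control DRG. Epha6, a neuronal Eph receptor, was at 0 to 0.0532 CPM in control skin and 32.4 to 51.5 CPM in control DRG. For these genes the ranges were far apart, and no fold is given against a group so close to 0, where 3 counts in the shallowest library were worth 0.0663 CPM. Epha5 was at 0 to 0.121 CPM in control skin and 10.8 to 17.6 CPM in control DRG. Unc5d was at 0 to 0.0634 CPM in control skin and 3.33 to 6.63 CPM in control DRG. Both are receptors, of ephrin-A ligands and of netrins, and their groups did not overlap.

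Other gaps could be given as folds. The ligands Efna3 and Efna4 were 40.1-fold and 37.9-fold higher in control skin than in control DRG, with log2 fold changes of 5.33 ± 0.242 and 5.24 ± 0.225 (SE). Ephb3 was 20.9-fold higher in skin, the secreted ligand Slit3 19.6-fold, and Unc5b, a netrin receptor of blood vessels and other tissues, 18.9-fold. Against these, the membrane semaphorin Sema4f was 52-fold lower in skin, at 0.598 to 2.76 CPM in control skin and 47.1 to 65.1 CPM in control DRG. Plxnc1 was 48-fold lower in skin, at 6.5 to 11.2 CPM in control skin and 326 to 461 CPM in control DRG. Skin and DRG ranges did not overlap for any gene of this paragraph (edgeR's quasi-likelihood test, highest adjusted p 5.98e-14, for Unc5b).

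Levels of ligands and receptors are given side by side for the slit and semaphorin 7A pairs. Slit3 was at 24.6 ± 2.64 TPM in control skin and 1.44 ± 0.422 TPM in control DRG. Slit2 was at 5.06 ± 0.97 TPM in skin and 15.1 ± 2.32 TPM in DRG. Robo1 was higher in skin, at 16 ± 7.62 TPM against 6.32 ± 0.6 TPM in DRG, and Robo2 was higher in DRG, where it stood at 61.4 ± 10.9 TPM against 3.72 ± 1.36 TPM in skin. The ligand Sema7a was expressed in both tissues, at 35.4 ± 10.7 TPM in skin and 46.8 ± 4.52 TPM in DRG. Its receptor Plxnc1 was at 2.37 ± 0.603 TPM in skin and 132 ± 18.6 TPM in DRG. Netrin genes split evenly: Ntn1 and Ntn4, a netrin of basement membranes, were higher in skin, and Ntn3 and Ntn5 higher in DRG. Without DRG control 5 the counts were 32 higher in skin and 30 higher in DRG. Over all genes they were 9202 and 9111, against 9243 and 9077 with every library.

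The effect of LL37 in skin was asked next. Guidance genes changed in both directions in model skin. Of the 60 tested, 10 rose and 15 fell, and 35 did not pass (edgeR's quasi-likelihood test, adjusted p under 0.05). Over all 19526 genes tested in skin 19.9% passed, 14.1% up and 5.82% down, and of the 60 guidance genes 16.7% rose and 25% fell. The median log2 fold change of the 60 was -0.11, against -0.02 over all genes, and the median absolute value was 0.40, against 0.25. Among the receptor families 5 of 25 tested rose and 8 fell, and among the ligand families 5 of 34 rose and 7 fell. Of the 8 ephrins 3 fell and none had a positive fold change. None of the 4 netrins and neither of the 2 slits tested passed, with 2 and 0 at an unadjusted p under 0.05. Of all 19526 genes, 6904 had an unadjusted p under 0.05 in skin.

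**Figure D2:**
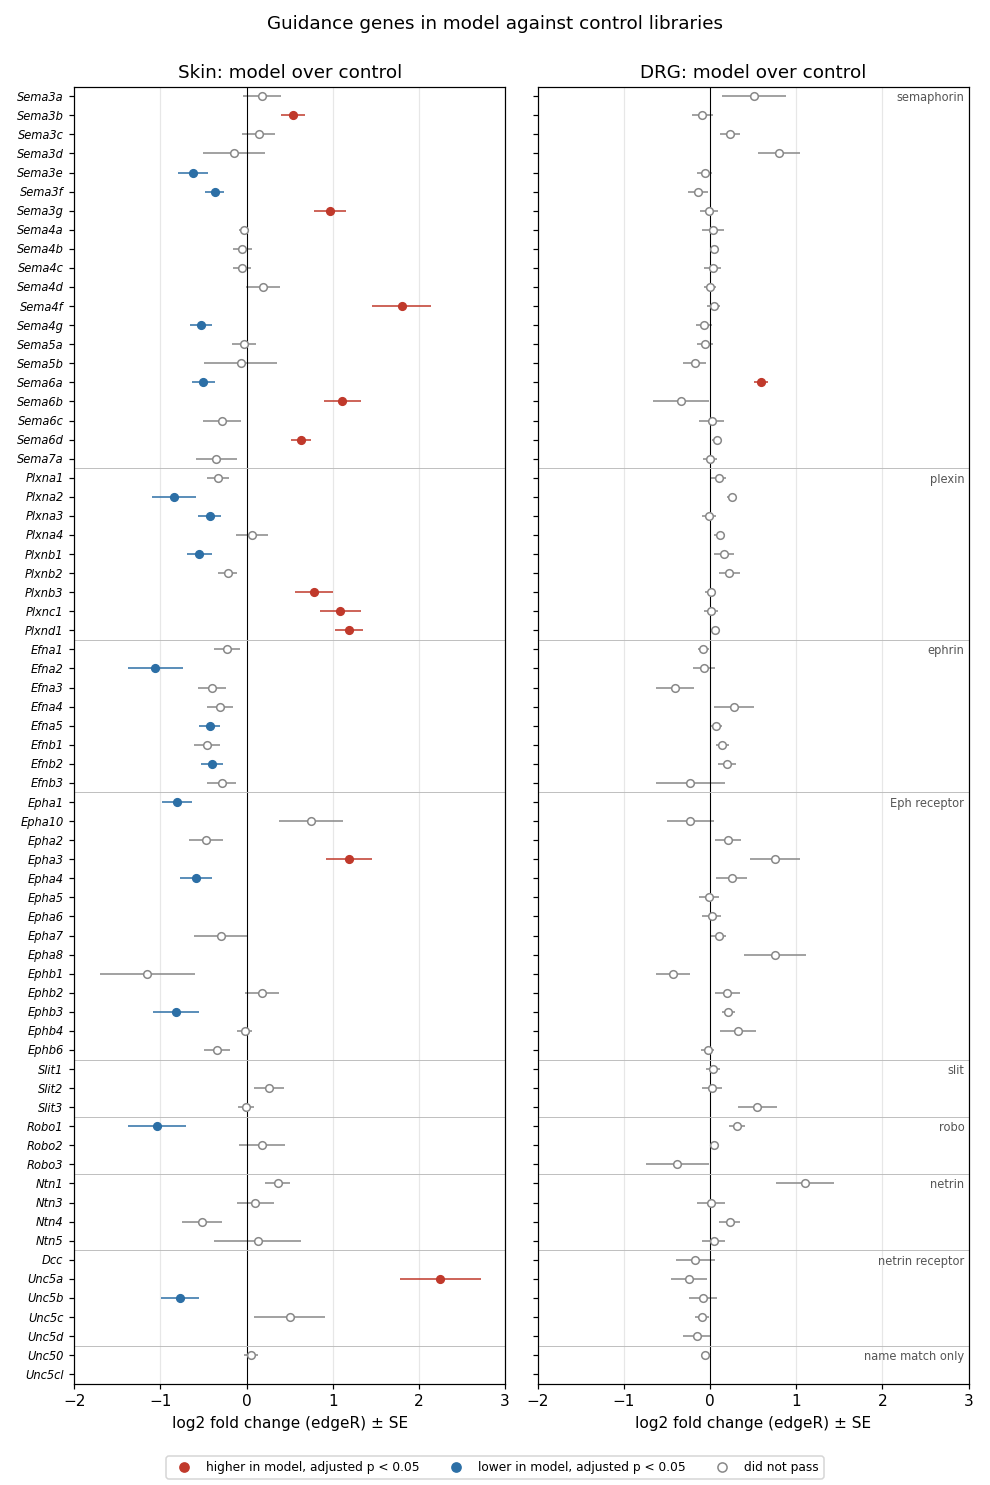
Log2 fold change of model over control with its standard error for each guidance gene in skin (left) and DRG (right), by family. Filled points passed an adjusted p of 0.05: 10 higher and 15 lower in model skin, and Sema6a alone, higher, in model DRG.

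Rises held across more fits than falls. For 7 of the 60 genes no model skin library was as low as any control library, namely Plxnd1, Sema6d, Sema3g, Sema4f, Sema6b, Plxnc1 and Epha3, against a background of 7.25%. Epha1 alone was lower in each model library than in any control, against a background of 1.44%. Of the 10 that rose, 8 passed in each of the 12 fits that left out a library and each of 11 other fits: the 7 above and Unc5a. Of the 15 that fell, Epha1 and Sema4g did. The number falling was 2 without skin model 4, 3 without skin control 3, 4 without skin control 5, skin control 6 or skin model 1, 8 without skin model 5, and 9 without skin control 1, skin model 3 or skin model 6. It was 20 without skin control 2. Falls over all genes moved as well, from 1137 with every library to 308 without skin model 4 and 2554 without skin control 2. The number of guidance genes rising stayed between 9 and 12. Over all genes 2755 rose with every library, 2353 without skin model 4 and 3724 without skin control 2.

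Among the semaphorin ligands, Sema4f showed the largest rise. Its level was 3.03, 4.05 and 4.31 CPM in model skin, against 0.598, 0.812 and 2.76 CPM in control skin. The groups did not overlap, and the highest control was skin control 2, the library low in hair follicle markers. The log2 fold change was 1.80 ± 0.342 (3.49-fold, edgeR adjusted p = 0.00363), and 2.29 without skin control 2. Sema6b and Sema6d, membrane ligands of A-type plexins, rose as well. Sema6b was at 6.15, 9.26 and 14.7 CPM in model skin and 2.93, 4.52 and 6.1 CPM in control skin (2.16-fold, edgeR adjusted p = 0.00432). Sema6d was at 18.5, 22.8 and 27.1 CPM in model skin and 12.9, 15.1 and 17.6 CPM in control skin (1.54-fold, edgeR adjusted p = 0.00285). In both genes the lowest model library lay just above the highest control.

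Of the secreted class 3 semaphorins 2 rose and 2 fell. Sema3g, known as a semaphorin of arterial endothelium, was at 17.7, 23.2 and 32 CPM in model skin, against 9.92, 11.3 and 17.4 CPM in control skin. The groups touched without overlapping, with a log2 fold change of 0.97 ± 0.182 (1.96-fold, edgeR adjusted p = 0.0034). Sema3b rose 1.45-fold, at 17.3, 20.1 and 24.4 CPM in model skin and 11.6, 13.1 and 19.9 CPM in control skin (edgeR adjusted p = 0.0192). Sema3e, the ligand that binds Plxnd1 without a neuropilin, fell 1.54-fold, at 14.4, 17.5 and 30.1 CPM in model skin and 23.6, 29.7 and 36.5 CPM in control skin (edgeR adjusted p = 0.0251). Sema3f, a repellent that acts through neuropilin-2, fell 1.29-fold, at 48.4, 66.7 and 80.1 CPM in model skin and 76.8, 85.6 and 93.2 CPM in control skin (edgeR adjusted p = 0.0359). Sema3a, the classic repellent of sensory axons, did not pass, at 5.97 to 13.3 CPM in model skin and 5.72 to 10.4 CPM in control skin.

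Sema4g and Sema6a fell too. Sema4g, a membrane semaphorin, was at 28.1, 33.6 and 48 CPM in model skin and 42.6, 51.2 and 59.6 CPM in control skin, with 5 of 6 model libraries below all controls (1.44-fold lower, edgeR adjusted p = 0.0154). Sema6a, a membrane ligand of Plxna2 and Plxna4, was at 30.5, 34.8 and 46.8 CPM in model skin and 36.3, 53.6 and 59.9 CPM in control skin (1.42-fold lower, edgeR adjusted p = 0.0249). Sema4d and Sema7a, semaphorins with roles in immune cells, did not pass. Sema4d was at 31.2, 33.4 and 62.8 CPM in model skin and 22, 34.7 and 42.6 CPM in control skin. Its highest value was in skin model 2, the library high in T cell markers. Sema7a was at 32.4, 44 and 54.9 CPM in model skin and 22, 60.9 and 69.8 CPM in control skin. The lowest control was skin control 2, and without it Sema7a passed as lower (log2 fold change -0.51, edgeR adjusted p = 0.0156).

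Plexins, the semaphorin receptors, moved both ways in equal number, with 3 up, 3 down and 3 not passing. Plxnd1, the plexin of endothelial cells, had the smallest p of all guidance genes in skin. It was at 37.3, 62.5 and 78.8 CPM in model skin, against 21.3, 26.4 and 34.7 CPM in control skin. The groups did not overlap, and the log2 fold change was 1.19 ± 0.165 (2.28-fold, edgeR adjusted p = 0.000654). Plxnc1 was at 13.7, 14.4 and 32.4 CPM in model skin and 6.5, 7.58 and 11.2 CPM in control skin (2.13-fold, edgeR adjusted p = 0.00793). Its highest value again belonged to skin model 2, and without that library the log2 fold change was 0.85 in place of 1.09 (edgeR adjusted p = 0.00414). Plxnb3, a receptor of Sema5a, rose 1.72-fold, at 2.47, 3.47 and 4.03 CPM in model skin and 1.12, 1.83 and 3.04 CPM in control skin (edgeR adjusted p = 0.0257). That call was lost without skin control 1, skin control 3 or skin control 5, and it did not hold in every other alternative either (highest adjusted p = 0.0729, over every alternative).

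Plxnb1, Plxna2 and Plxna3 were the plexins that fell. Plxnb1, the receptor of Sema4d, was at 99.7, 162 and 181 CPM in model skin and 178, 231 and 244 CPM in control skin. Of the model libraries 3 of 6 lay below all controls, and the gene fell 1.46-fold (edgeR adjusted p = 0.0203), a call lost without skin model 4 (highest adjusted p over all alternatives 0.0572). Plxna2 was at 60.5, 76.4 and 105 CPM in model skin and 68.7, 145 and 210 CPM in control skin (1.79-fold lower, edgeR adjusted p = 0.037). Skin control 3, skin control 5 and skin control 6 held 186, 171 and 210 CPM, and the other controls 68.7 to 120 CPM. Plxna3, which relays Sema3f, fell 1.35-fold (edgeR adjusted p = 0.0413). Plxna4, a plexin of sensory axons, was at 4.5 to 8.03 CPM in model skin and 3.9 to 7.44 CPM in control skin and did not pass.

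The starts of Plxnd1, Sema3g, Sema4f and Epha1, which passed in skin and were picked without a rule, are printed here as examples. They are windows from 250 bases before to 50 bases after a start listed by RefSeq for GRCm38.p6, read 5′ to 3′ on the strand of the gene. The windows were chr6:115994956-115995255 (minus strand) for Plxnd1, chr14:31217623-31217922 (plus) for Sema3g, chr6:82939720-82940019 (minus) for Sema4f and chr6:42373219-42373518 (minus) for Epha1. Capitals mark GGGCGG, the core of the GC box, on either strand.
Plxnd1: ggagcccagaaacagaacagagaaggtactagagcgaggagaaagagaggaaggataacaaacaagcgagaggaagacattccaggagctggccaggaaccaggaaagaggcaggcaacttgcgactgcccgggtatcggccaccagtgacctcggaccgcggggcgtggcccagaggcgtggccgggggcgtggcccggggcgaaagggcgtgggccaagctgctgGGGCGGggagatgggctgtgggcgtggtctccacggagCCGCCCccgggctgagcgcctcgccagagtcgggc
Sema3g: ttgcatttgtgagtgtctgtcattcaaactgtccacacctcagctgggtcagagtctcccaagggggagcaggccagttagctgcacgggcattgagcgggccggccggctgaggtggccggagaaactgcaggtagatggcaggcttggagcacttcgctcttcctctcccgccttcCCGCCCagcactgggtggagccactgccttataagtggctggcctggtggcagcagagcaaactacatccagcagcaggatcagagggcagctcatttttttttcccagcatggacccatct
Sema4f: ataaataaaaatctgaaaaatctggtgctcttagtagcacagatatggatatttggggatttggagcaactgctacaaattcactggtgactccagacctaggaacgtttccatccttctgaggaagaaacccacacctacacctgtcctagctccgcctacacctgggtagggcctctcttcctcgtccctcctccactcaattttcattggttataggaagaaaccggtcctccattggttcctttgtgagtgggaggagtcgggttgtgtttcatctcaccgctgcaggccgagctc
Epha1: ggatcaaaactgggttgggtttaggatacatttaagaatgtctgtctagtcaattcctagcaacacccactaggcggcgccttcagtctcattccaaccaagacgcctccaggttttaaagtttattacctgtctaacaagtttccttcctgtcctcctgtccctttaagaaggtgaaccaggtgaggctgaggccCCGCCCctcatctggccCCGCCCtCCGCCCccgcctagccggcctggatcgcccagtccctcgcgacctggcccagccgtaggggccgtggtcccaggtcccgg

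The Plxnd1 window held 2 matches, that of Sema3g 1, that of Epha1 3 and that of Sema4f 0. RefSeq windows were matched for 58 of the 68 genes, 74 windows in all. On either strand 71.6% of these held GGGCGG, against 35.7% of the 32851 windows of all genes. It was found in 7 of 11 windows of genes that rose in model skin and in 12 of 13 windows of genes that fell. The guidance windows were also richer in G and C, with a median of 64.3%, against 52.7% over all windows. Other motifs were searched on both strands as well. The ETS core CCGGAA was found in 10.8% of the guidance windows and 14.9% of all windows. The AP-1 site TGANTCA was found in 4.05% of the guidance windows and 7.81% of all. In the windows of genes that rose and of genes that fell, the ETS core had 0 of 11 and 2 of 13 matches and the AP-1 site 1 of 11 and 0 of 13. The interferon response element was found in 2.7% of the guidance windows and 3.44% of all, its 2 guidance matches both among the 11 windows of genes that rose and 0 among the 13 of genes that fell. The E-box CACGTG was found in 6.76% of the guidance windows and 7.15% of all, with 1 of 11 and 1 of 13 in the windows of genes that rose and fell. The 4 printed windows held none of these 4 motifs, and windows this few were not tested. A match is a description of the letters, not a bound site.

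**Figure D3:**
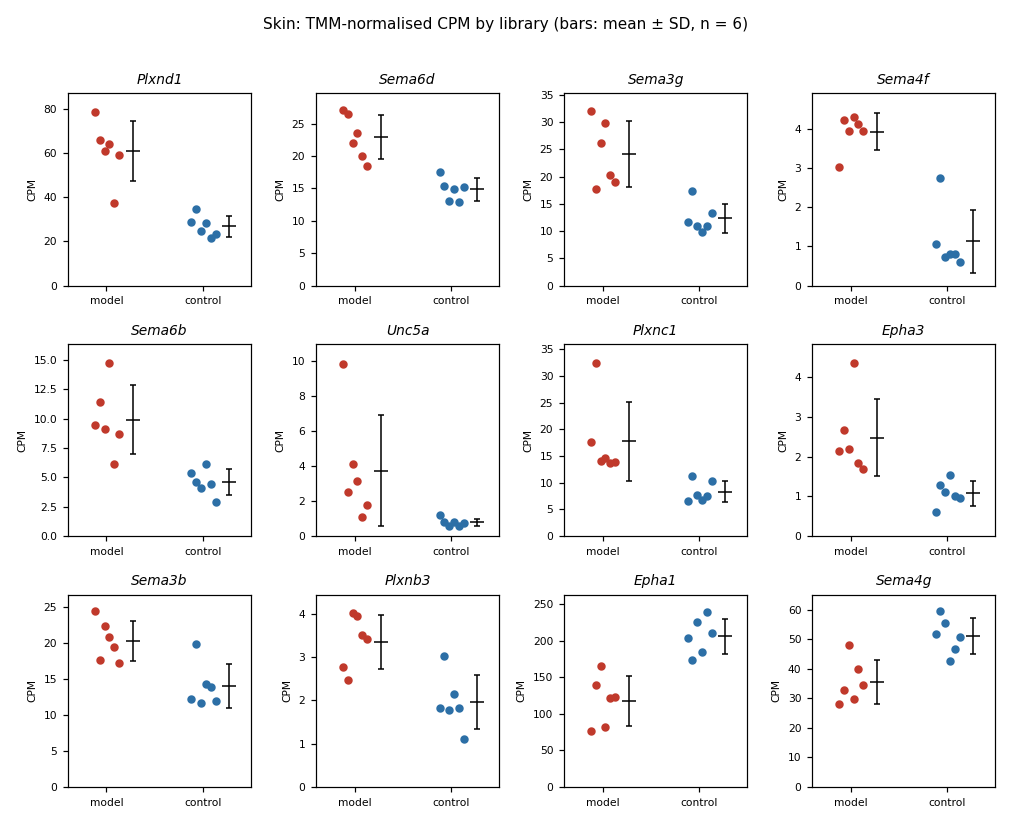
CPM in each of 6 model and 6 control skin libraries for the 10 guidance genes that rose and for Epha1 and Sema4g, which fell, with mean and SD. Plxnd1 lay at 37.3 to 78.8 CPM in model skin and 21.3 to 34.7 CPM in control skin, and Epha1 at 76.3 to 165 CPM in model skin and 174 to 239 CPM in control skin.

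Of the 8 ephrin ligands, Efna2, Efna5 and Efnb2 fell in model skin and 5 did not pass, and none of the 3 calls held in every fit. Efna2, a ligand anchored to the membrane by a lipid, was at 3.5, 5.85 and 8.61 CPM in model skin, against 4.59, 12.5 and 18.5 CPM in control skin. Its log2 fold change was -1.06 ± 0.32 (edgeR adjusted p = 0.0367), with the lowest control in skin control 2. Efna5, of the same type, was at 53, 67.7 and 82.7 CPM in model skin and 72.3, 91.3 and 103 CPM in control skin (edgeR adjusted p = 0.028). Efnb2, the transmembrane ligand that marks arteries, was at 116, 149 and 209 CPM in model skin and 197, 200 and 225 CPM in control skin (edgeR adjusted p = 0.0415). Control libraries of Efnb2 were close together, and 1 of the model libraries reached among them. Efna1 was at 40.5 to 79 CPM in model skin and 61.2 to 78.2 CPM in control skin, and Efnb1 at 60.2 to 80.8 CPM in model skin and 69.6 to 129 CPM in control skin. Neither passed, with log2 fold changes of -0.23 and -0.46. Summed over the 8 genes, ephrins stood at 214 to 431 TPM in model skin and 410 to 449 TPM in control skin, ranges that overlapped.

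Of the 11 Eph receptors tested in skin 3 fell and 1 rose. Epha1 was at 76.3, 122 and 165 CPM in model skin, against 174, 207 and 239 CPM in control skin. No model library reached the controls, and the log2 fold change was -0.81 ± 0.177 (1.75-fold lower, edgeR adjusted p = 0.00824). Ephb3, an Eph receptor of epithelia, was at 51.1, 91.1 and 111 CPM in model skin and 60.4, 164 and 179 CPM in control skin (1.77-fold lower, edgeR adjusted p = 0.0473). Its lowest control was skin control 2, and the other controls began at 161 CPM. Epha4, which binds ligands of both ephrin classes, was at 58, 95.7 and 115 CPM in model skin and 82.7, 141 and 155 CPM in control skin (1.51-fold lower, edgeR adjusted p = 0.0413). Skin control 2 was again the lowest control.

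Epha3, a receptor of ephrin-A ligands in mesenchyme and motor axons, was the Eph receptor that rose. It was at 1.69, 2.17 and 4.34 CPM in model skin and 0.603, 1.05 and 1.53 CPM in control skin, with a log2 fold change of 1.19 ± 0.27 (2.29-fold, edgeR adjusted p = 0.00966). The groups did not overlap, and the top value was in skin model 4. Epha2, the main target of Efna1 in epidermis, was at 36.7 to 81.3 CPM in model skin and 49.1 to 102 CPM in control skin. Ephb2 was at 15 to 30.2 CPM in model skin and 14.7 to 27.8 CPM in control skin. Ephb4, the venous partner of Efnb2, was at 41.2 to 57.1 CPM in model skin and 49 to 59.7 CPM in control skin. These 3 did not pass, and the log2 fold change of Ephb4 was -0.02 ± 0.0872.

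Of the slit system Robo1 alone passed. Slit2 was at 18.7 to 40 CPM in model skin and 19.5 to 31.1 CPM in control skin, and Slit3 at 49.1 to 70.2 CPM in model skin and 53.1 to 67.9 CPM in control skin. Neither passed (log2 fold changes 0.26 ± 0.176 and -0.01 ± 0.0915). Robo1 was at 20.3, 27.8 and 58.6 CPM in model skin, against 40.7, 64.8 and 108 CPM in control skin. Skin control 3, skin control 5 and skin control 6, high in melanocyte markers, held 97.7, 81.8 and 108 CPM. The other controls held 40.7 to 47.8 CPM. The log2 fold change was -1.04 ± 0.339 (2.06-fold lower, edgeR adjusted p = 0.0476), at the edge of the threshold and with ranges that overlapped. Robo2 did not pass, at 11.9 to 28.7 CPM in model skin and 11.1 to 27.7 CPM in control skin.

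Netrin receptors moved apart. Unc5a had the largest fold of all guidance genes, 2.25 ± 0.468 on the log2 scale (4.76-fold, edgeR adjusted p = 0.00615). It was a low gene, at 1.12, 2.82 and 9.81 CPM in model skin and 0.572, 0.773 and 1.18 CPM in control skin. Model libraries were widely spread, 5 of 6 lay above all controls, and without skin model 1, the highest, the log2 fold change was 1.69. Unc5b was at 69.8, 113 and 139 CPM in model skin, against 101, 193 and 231 CPM in control skin (1.71-fold lower, edgeR adjusted p = 0.0281). The lowest control was skin control 2. Unc5c, at 0.267 to 1.3 CPM in model skin and 0.201 to 0.758 CPM in control skin, did not pass. Ntn1 was at 29.6 to 48.7 CPM in model skin and 25.9 to 43.1 CPM in control skin, and Ntn4 at 31.8 to 50 CPM in model skin and 24.7 to 78.3 CPM in control skin. Neither passed over all libraries. Without skin control 2, Ntn1 passed as higher (log2 fold change 0.44, edgeR adjusted p = 0.0295; 0.46 without skin model 2) and Ntn4 as lower (-0.68, edgeR adjusted p = 0.00356).

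Ligands and their receptors moved together in some pairs and not in others. Plxnd1 rose while its ligand Sema3e fell, and Plxnc1 rose while Sema7a did not pass. Robo1 fell while Slit2 and Slit3 did not pass. Epha1 and Epha4 fell beside Efna5 and Efna2, while Efna1 did not pass and Epha3, also a receptor of ephrin-A ligands, rose. Sema6a and its receptor Plxna2 both fell, while Sema6b and Sema6d, ligands of A-type plexins, rose.

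Cell type markers moved in the same libraries. In model skin 7 of 8 endothelial markers rose, with sums of 179 to 367 CPM in model skin and 112 to 173 CPM in control skin. All 8 monocyte and macrophage markers rose, with sums of 571 to 1960 CPM in model skin and 150 to 387 CPM in control skin. Of the 6 fibroblast markers 3 rose, of 8 Schwann cell markers 2, of 7 T cell markers 5, and all 6 adipocyte markers. Of 6 neutrophil markers 3 rose, of 6 pericyte and smooth muscle markers 2, and 1 of 5 sensory neuron markers tested, while 3 of 5 melanocyte markers fell. No keratinocyte, skeletal muscle or satellite glia marker passed. None of the 8 hair follicle markers passed either, with a median log2 fold change of -1.58 and sums of 1860 to 25700 CPM in model skin and 1240 to 50600 CPM in control skin. The part of these markers in the changes of guidance genes was not tested. A fit with the hair follicle sum as a covariate, added after seeing the data, called 10 guidance genes up and 7 down. Over all genes that fit called 2121 up and 608 down, against 2755 and 1137 without the covariate.

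**Figure D4:**
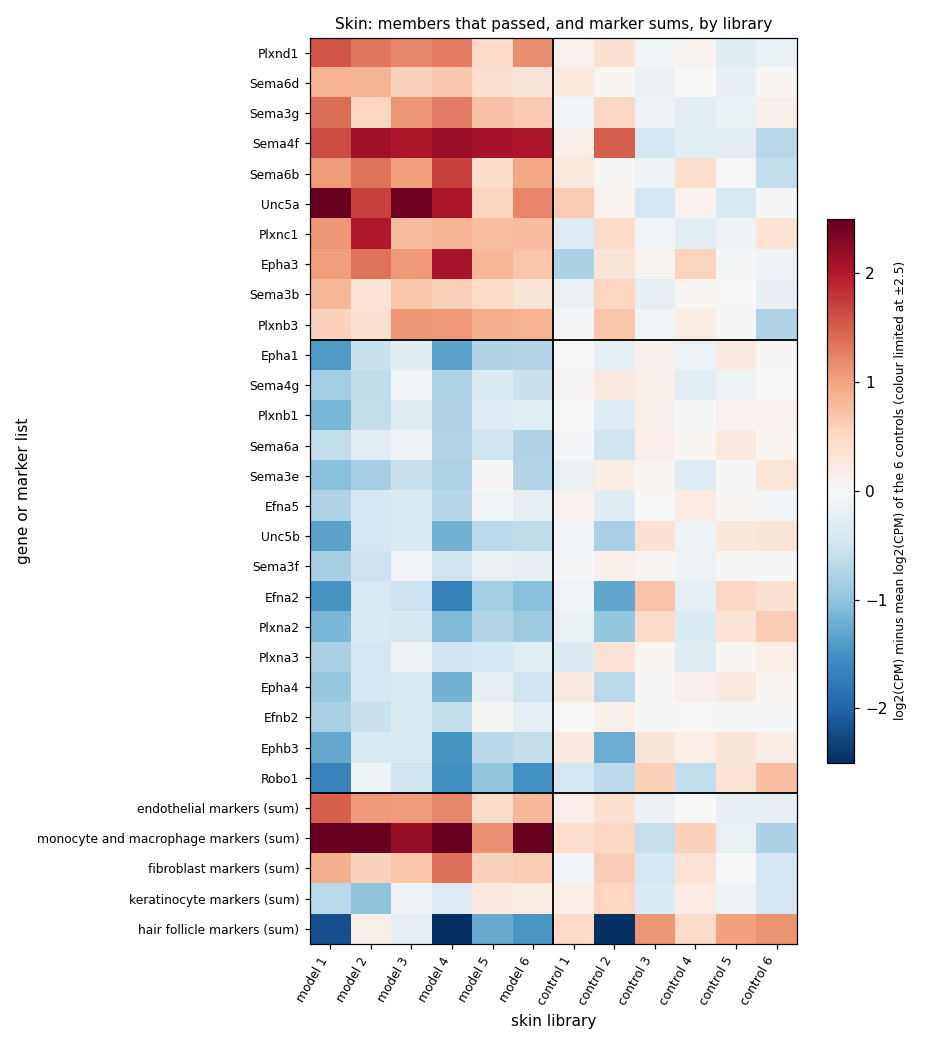
Log2 CPM of the 25 guidance genes that passed in skin and of 5 summed marker lists, in 6 model and 6 control skin libraries, each relative to the mean of the 6 controls. In skin control 2, with a hair follicle sum of 1240 CPM, Ephb3 (60.4 CPM) and Epha4 (82.7 CPM) were the lowest of the controls.

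Of 31 co-receptors and other guidance genes tested in skin 7 rose and 4 fell, with a median log2 fold change of -0.03, where 14.1% of all genes rose and 5.82% fell. Nrp1, the neuropilin that pairs with plexins and with the VEGF receptor Kdr, rose 2.63-fold, to 90.1 ± 29.3 CPM in model skin, against 34.2 ± 6.99 CPM in control skin (SD, n = 6 each, edgeR adjusted p = 0.00117). Cd72, a receptor of Sema4d on B cells, rose 4.54-fold, Kdr 2.80-fold and Robo4, the robo of endothelium, 1.93-fold. Draxin, a ligand of Dcc, rose to 1.83 ± 1.75 CPM in model skin, against 0.489 ± 0.16 CPM in control skin (edgeR adjusted p = 0.0194). Neo1, a netrin receptor related to Dcc, fell 1.57-fold and Flrt3, a membrane ligand of Unc5 receptors, 1.82-fold. Of 47 cytoplasmic signalling genes 8 rose and 7 fell, with a median of -0.11 and against the same background. They included Fes, a kinase downstream of plexins (3.50-fold up), Chn1 (3.39-fold up) and Dpysl2, the Sema3a effector also called CRMP2 (2.43-fold up). The cofilin kinase Limk2 fell 1.59-fold, while its relative Limk1 rose 1.73-fold.

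The same comparison in the ganglia gave 1 guidance gene. Of 66 tested in DRG only Sema6a passed, higher in model DRG, and none fell (edgeR's quasi-likelihood test), while 9 had an unadjusted p under 0.05. DESeq2 called 3 of the 66 higher and none lower, and over all genes 118 higher and 18 lower. Over all 19509 genes tested in DRG 0.0974% passed in edgeR, all of them higher and 0% lower, and 1822 had an unadjusted p under 0.05. The median log2 fold change of the 66 was 0.03, against -0.01 over all genes. The groups did not overlap for 2 of the 66, Sema6a and Plxna2, both higher in model DRG, against a background of 0.379% higher and 0.149% lower.

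Sema6a was at 17.7, 22.2 and 23.8 CPM in model DRG, against 13.1, 13.9 and 16.1 CPM in control DRG. The lowest model library lay above the highest control, which was DRG control 5. The log2 fold change was 0.59 ± 0.0847 (1.5-fold, edgeR adjusted p = 0.0121). The call was lost in several fits, among them those without DRG control 1 or DRG control 4 and the fit over all 24 libraries (highest adjusted p over all alternatives 0.112), and without DRG control 5 the log2 fold change was 0.63 (edgeR adjusted p = 0.00518). Plxna2, the receptor of Sema6a, was at 156, 163 and 171 CPM in model DRG and 123, 136 and 151 CPM in control DRG. The groups did not overlap, but the difference was small, 0.25 ± 0.0504 on the log2 scale, and did not pass (edgeR adjusted p = 0.116). It passed without DRG control 5 (log2 fold change 0.29, edgeR adjusted p = 0.0158).

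**Figure D5:**
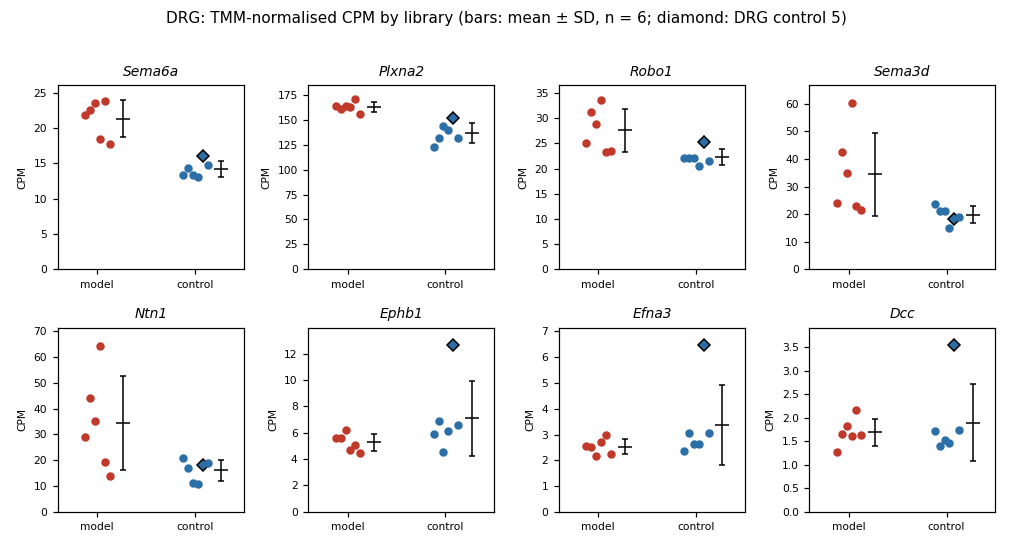
CPM in each of 6 model and 6 control DRG libraries for 8 guidance genes, with mean and SD; the diamond is DRG control 5. Sema6a lay at 17.7 to 23.8 CPM in model DRG and 13.1 to 16.1 CPM in control DRG, and DRG control 5 was highest of the controls for Ephb1 (12.7 CPM), Efna3 (6.47 CPM) and Dcc (3.55 CPM).

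Other secreted ligands in DRG were uneven among the model libraries. Ntn1 was at 14.1, 32.1 and 64.3 CPM in model DRG, against 10.9, 17.5 and 20.7 CPM in control DRG, and did not pass at a log2 fold change of 1.10 ± 0.334 (edgeR adjusted p = 0.435). Sema3d, a secreted class 3 semaphorin, was at 21.6, 29.4 and 60.4 CPM in model DRG and 15, 20.2 and 23.7 CPM in control DRG, and did not pass at 0.80 ± 0.243 (edgeR adjusted p = 0.433). In both genes the model range reached far above the controls and its lower end lay among them. Robo1 was at 23.3, 26.9 and 33.6 CPM in model DRG and 20.5, 22.1 and 25.2 CPM in control DRG, with a log2 fold change of 0.31 ± 0.0928 that did not pass (edgeR adjusted p = 0.422). Slit3 was at 2.36 to 6.2 CPM in model DRG and 1.72 to 4.04 CPM in control DRG (log2 fold change 0.55, not passing). The highest value of Ntn1, Sema3d, Robo1 and Slit3 was each time in DRG model 4, so these are not separate observations. The sum of 6 fibroblast markers was 2964 CPM in that library, against 1467 to 2492 CPM in the other model DRG libraries. The part of these markers was not tested.

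Among the genes with a negative fold change in DRG, Ephb1, Efna3, Sema5b and Unc50 had the smallest p. Ephb1, a receptor of ephrin-B ligands, was at 4.49, 5.33 and 6.18 CPM in model DRG, against 4.53, 6.36 and 12.7 CPM in control DRG. Its log2 fold change was -0.43, and -0.19 without DRG control 5, which held the 12.7 CPM. Efna3 was at 2.16, 2.52 and 2.99 CPM in model DRG and 2.35, 2.84 and 6.47 CPM in control DRG, with -0.41, and -0.12 without the same library. Sema5b was at 4.38 to 6.86 CPM in model DRG and 5.23 to 8.43 CPM in control DRG (-0.18). Unc50 was at 33.4 to 35.3 CPM in model DRG and 34.4 to 37.8 CPM in control DRG (-0.06). None of these 4 passed.

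None of 5 further semaphorins passed in DRG. Sema3a was at 0.527 to 2.78 CPM in model DRG and 0.426 to 1.64 CPM in control DRG, Sema3f at 17.6 to 22 CPM in model DRG and 18.3 to 31.1 CPM in control DRG, and Sema4d at 40.3 to 45.1 CPM in model DRG and 35.5 to 48.5 CPM in control DRG. Sema6d was at 143 to 157 CPM in model DRG and 128 to 161 CPM in control DRG, and Sema7a at 55.6 to 70.8 CPM in model DRG and 53.3 to 71 CPM in control DRG. Their log2 fold changes lay between -0.14 (Sema3f) and 0.51 (Sema3a, and 0.66 without DRG control 5). The plexins Plxna4 (114 to 140 CPM in model DRG, 110 to 132 CPM in control DRG) and Plxnd1 (133 to 147 CPM in model DRG, 119 to 151 CPM in control DRG) had log2 fold changes of 0.11 and 0.06. Slit2 was at 54 to 73.5 CPM in model DRG and 49.9 to 70.1 CPM in control DRG, and Robo2 at 253 to 298 CPM in model DRG and 239 to 292 CPM in control DRG. Their log2 fold changes were 0.02 ± 0.113 and 0.05 ± 0.0567.

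Netrin receptors and the Eph system did not pass either in DRG. Dcc was at 1.28 to 2.16 CPM in model DRG and 1.41 to 3.55 CPM in control DRG, with the top value in DRG control 5, without which its log2 fold change was 0.10 in place of -0.17. Unc5b was at 6.6 to 10 CPM in model DRG and 7.25 to 14.8 CPM in control DRG, and Unc5c at 20.1 to 23 CPM in model DRG and 18.6 to 26.3 CPM in control DRG. Ntn4 was at 5.48 to 8.96 CPM in model DRG and 5.33 to 6.93 CPM in control DRG. Groups overlapped in all 4. Of the ephrins, Efna1 was at 18.1 to 20.7 CPM in model DRG and 18.1 to 23.5 CPM in control DRG, Efna5 at 23.3 to 27.4 CPM in model DRG and 21.6 to 29.4 CPM in control DRG, Efnb1 at 20.7 to 27 CPM in model DRG and 19.9 to 24 CPM in control DRG, and Efnb2 at 33.3 to 50.1 CPM in model DRG and 31.6 to 39.1 CPM in control DRG. Their log2 fold changes lay between -0.08 (Efna1) and 0.20 (Efnb2). The receptors Epha2, Epha4, Ephb2 and Ephb4 had log2 fold changes of 0.21, 0.25, 0.20 and 0.32, with ranges in model DRG of 5.4 to 9.48, 9.09 to 19.3, 5.27 to 7.96 and 11.2 to 23.2 CPM. In control DRG the same receptors ranged over 4.64 to 8.11, 8.79 to 13.6, 4.8 to 8.71 and 9.09 to 21.4 CPM.

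Among the partners tested in DRG, Flrt3 alone passed of the 31 co-receptors and other guidance genes. It rose 1.75-fold, to 30.7 ± 3.69 CPM in model DRG, against 17.5 ± 2.15 CPM in control DRG (SD, n = 6 each, edgeR adjusted p = 0.00176), and so ran opposite to skin, where it fell. None of the 47 cytoplasmic signalling genes passed in DRG, nor did any gene of the cell type marker lists.

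Whether the model effect differed between the tissues was tested as an interaction over all 24 libraries, skin minus DRG. It shares its libraries with the comparisons within skin and within DRG, whose values are given side by side. The fit, also used for control skin against control DRG, took skin and DRG libraries as independent. Whether same-numbered ones share an animal is not in the labels. Of the 68 genes 10 had a more positive and 9 a more negative effect in skin (edgeR's quasi-likelihood test), where 13.2% of 21998 genes passed, 8.42% more positive and 4.74% more negative. Plxnd1 had log2 fold changes of 1.19 in skin and 0.06 in DRG, a difference of 1.08 ± 0.167 (edgeR adjusted p = 0.000263). Sema4f had 1.80 in skin and 0.04 in DRG (difference 1.73, adjusted p = 0.00114), and Sema3g 0.97 in skin and -0.01 in DRG (difference 0.93, adjusted p = 0.00542). For Unc5a the values were 2.25 in skin and -0.24 in DRG (difference 2.43, adjusted p = 0.0036). These 4 rose in skin and did not pass in DRG, and the test of the difference passed for each.

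The genes with a more negative effect in skin included Sema6a, which fell in skin and rose in DRG. Its log2 fold changes were -0.50 in skin and 0.59 in DRG, and the difference was -1.14 ± 0.173 (edgeR adjusted p = 0.000223). It was the only guidance gene that passed in both tissues. Its receptor Plxna2 had -0.84 in skin and 0.25, not passing, in DRG (difference -1.14, edgeR adjusted p = 0.0082). Robo1 had -1.04 in skin and 0.31, not passing, in DRG (difference -1.41, edgeR adjusted p = 0.0142). Plxnb1 had -0.55 in skin and 0.16, not passing, in DRG (difference -0.76, edgeR adjusted p = 0.0163). Efna5, Efnb1, Efnb2, Epha4 and Ephb3 were the other 5, and Sema3b, Sema6b, Sema6d, Plxnb3, Plxnc1 and Unc5cl the other 6 with a more positive effect. Unc5cl, a name match, rested on few reads, at 0.118 to 0.948 CPM in model skin, 0 to 0.0893 CPM in control skin, 0.0386 to 0.373 CPM in model DRG and 0.116 to 0.345 CPM in control DRG. The 9 more negative became 16 without skin control 2 and 14 without DRG control 5. Over all genes, 1043 more negative became 2271 and 1105 without the same libraries.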

How the data were processed

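PolyA RNA of 24 mouse libraries was sequenced. HISAT2 2.1.0, StringTie 2.1.3b, Trimmomatic and bcl2fastq 2.20.0 appear in the submitters' processing notes, with the genome GRCm38/mm10. The sources used here do not give how reads were assigned to genes, or whether by strand, so overlapping and antisense genes cannot be told apart. The authors deposited raw gene counts, whole numbers whose total differs between libraries. TPM values, per the file headers, were computed by the authors and served for levels between genes and in alternative fits. FPKM values, also deposited by the authors, were not used. Counts were tested with edgeR 4.0.16 in R 4.3.3 (filterByExpr, TMM, robust quasi-likelihood F test, Benjamini-Hochberg adjustment over all genes tested, threshold 0.05), each tissue fitted alone, and with 4 group means over 24 libraries for the interaction and for control skin against control DRG. CPM are TMM-normalised. The tests were checked on simulated data. Alternatives were DESeq2 1.42.0, limma 3.58.1 on log2(TPM + 1) and log2(TPM + 0.1), RLE and upper-quartile factors, TMM within each tissue, other filters (none, or 1 CPM in 6 libraries), no robust option, the replicate number as a block, all libraries in 1 fit and each library left out. Among 60 pairs of libraries within groups none agreed within sampling noise (lowest chi-square per gene 7.25).

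The members, lists and tests were chosen with earlier results of these data known. Genes are named by a rule: of those that passed and averaged 1 CPM or more in either group, the 8 largest rises, the 6 largest falls and, per direction, the 4 of smallest p (filled with genes not passing), 4 in each direction for the interaction, 6 for the tissues, and 24 genes always given. The other genes that passed, ligands or receptors of the named ones and genes singled out by a library or a level were named after their values were seen.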

Additional observations from a re-analysis of the deposited data

Results flagged for a closer look

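In 19 of the 136 groups of 6 libraries examined, the highest or lowest library stood apart from the others by more than Dixon's critical value, a gap set against the group's range. Chance alone does this in about 1 group in 20 where values are normal and groups independent. These groups share their libraries, the genes were partly named by their values, and no rate over all genes was taken. No excess is therefore read from the number. In skin control 2, the library with a hair follicle sum of 1240 CPM, Sema4f was high at 2.76 CPM (others from 0.598 to 1.07), as was Efnb2 at 225 CPM (others from 197 to 203). The same library was low for Ephb3 (60.4 CPM, others from 161 to 179), Sema7a (22 CPM, others from 60 to 69.8), Ntn4 (24.7 CPM, others from 62.3 to 78.3), Epha2 (49.1 CPM, others from 91 to 102) and Epha4 (82.7 CPM, others from 135 to 155). In skin model 2, with a T cell marker sum of 198 CPM, Plxnc1 was at 32.4 CPM (others from 13.7 to 17.5), Sema4d at 62.8 CPM (others from 31.2 to 38.9) and Ntn1 at 29.6 CPM (others from 43.9 to 48.7). Skin model 1 was high for Unc5a, at 9.81 CPM (others from 1.12 to 4.1), and low for Sema4f, at 3.03 CPM (others from 3.94 to 4.31). Skin model 4 was high for Epha3, at 4.34 CPM (others from 1.69 to 2.66).

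In DRG control 5, with a central glia marker sum of 834 CPM, Robo1 was at 25.2 CPM (others from 20.5 to 22.2), Ephb1 at 12.7 CPM (others from 4.53 to 6.86), Efna3 at 6.47 CPM (others from 2.35 to 3.06) and Dcc at 3.55 CPM (others from 1.41 to 1.74). Unc5b was at 6.6 CPM in DRG model 6 (others from 8.87 to 10), and Unc5c at 23 CPM in DRG model 5 (others from 20.1 to 21). The part of these libraries' markers in the values was not tested.

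The model effect differed between skin and DRG by the interaction test for 8 named genes, given here as skin minus DRG on the log2 scale. It was more positive in skin for Plxnd1 (1.08), Sema4f (1.73), Unc5a (2.43) and Sema3g (0.93), and more negative for Sema6a (-1.14), Plxna2 (-1.14), Robo1 (-1.41) and Plxnb1 (-0.76).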

How the results depend on the processing

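The 10 guidance genes higher in model skin came to between 8 and 13 under every alternative run, and the 31 and 32 genes that differed between control skin and control DRG changed by less than 1.5 times. The 15 lower in model skin became 5 with limma on log2(TPM + 1), 6 on log2(TPM + 0.1), 7 with the hair follicle sum as a covariate, an alternative chosen after seeing the data, and 2 to 20 with a library left out. Over all genes, the 1137 lower in model skin became 460 and 449 with the limma fits and 608 with the covariate. With a library left out they became 308 to 2554. The 1 gene higher in model DRG became 3 with DESeq2, 2 with either limma fit, 0 with all 24 libraries in 1 fit and 0 to 2 with a library left out. Over all genes, the 19 higher in model DRG became 118 with DESeq2, 20 and 22 with the limma fits and 31 with all 24 libraries. For the difference between tissues, the 10 more positive became 6 with limma on log2(TPM + 1), and the 9 more negative became 17 with DESeq2 and 8 to 16 with a library left out. Over all genes, 1852 more positive became 1853 with that limma fit, and 1043 more negative became 1780 with DESeq2. The cause was not tested.

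Same-numbered model and control skin libraries correlated between -0.563 and 0.324 in their deviations, with 1 of 6 pairs over 0.1. Same-numbered model and control DRG libraries correlated between -0.557 and -0.0369. Between skin and DRG, same-numbered libraries correlated between -0.168 and 0.0709 in the model and between -0.0527 and 0.0946 in controls. The main fits used no pairing, but these values cannot tell whether a skin and a DRG library share an animal. With the replicate number as a block, 8 guidance genes were higher and 6 lower in model skin, and 0 higher in model DRG, where the call of Sema6a was lost. Over all genes, the block gave 2264 higher and 540 lower in model skin and 6 higher in model DRG. Among guidance genes it gave 9 more positive and 6 more negative for the difference, and 32 and 31 for control skin against control DRG. The same 2 comparisons over all genes gave 1212 and 486 with the block (1852 and 1043 without it), and 9026 and 8954 (9243 and 9077 without it).

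Log2 fold changes whose sign changed belonged to genes that had not passed. In skin, the covariate gave Sema3a -0.07, Sema7a 0.1 and Robo2 -0.03, and both limma fits gave Slit3 0.01 and Ephb4 0. With a library left out, Plxna4 ranged from -0.04 to 0.17, Slit3 from -0.05 to 0.05 and Ephb4 from -0.04 to 0.06. In DRG, Sema4d was 0 with the block and 0.05 and 0.06 with limma, ranging from -0.05 to 0.04 with a library left out. Sema7a was 0 with DESeq2, RLE factors and the block and 0.05 with either limma fit, ranging from -0.05 to 0.03. Unc5b was 0 with limma on log2(TPM + 0.1), ranging from -0.16 to 0.09, Slit2 from -0.05 to 0.06 and Dcc from -0.25 to 0.1. The 8 genes that the filter left out in skin were not tested there, and they were under 1 CPM in every skin library.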
